A study of Mus musculus with 8 samples.

Results

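The NRF2 pathway was followed through 10 genes, chosen by symbol from the 21983 gene symbols of 1 table of RNA-seq counts: Nfe2l2, Keap1, Gclc, Gclm, Nqo1, Hmox1, Txnrd1, Srxn1, G6pdx and Osgin1. All 10 were listed and all 10 passed the filter on low counts. The cells were AML-12, an established mouse hepatocyte line, grown in medium with serum. Of 8 libraries, 4 were from cells that overexpressed the long non-coding RNA Gm47544, and 4 were from control cells labelled WT that carried pLKO.1, a lentiviral vector. The labels named no vector for the overexpressing cells and did not say whether these were clones, or whether replicates were separate cultures, so p-values rest on a spread that may be technical. Gm47544 itself was not analysed here, so the overexpression was not checked in the counts.

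NRF2, the protein of Nfe2l2, is a transcription factor that switches on genes against oxidants and reactive chemicals. In resting cells KEAP1 holds it in the cytoplasm and presents it to a cullin-3 ubiquitin ligase for degradation. Oxidants and electrophiles modify KEAP1, and NRF2 then enters the nucleus, pairs with a small MAF protein and binds antioxidant response elements near genes for glutathione synthesis, thiol reduction, NADPH supply and quinone and heme breakdown. In liver the pathway is best known for its part in drug detoxification.

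Library totals lay between 11016907 and 17338310 counts in overexpression libraries and between 12256376 and 18965662 in control libraries. Levels are given as CPM, that is counts scaled to library size with trimmed-mean factors, and a gene was called when its adjusted p was below 0.05 by edgeR (quasi-likelihood test over 11520 genes). Control library 3 stood apart from the other controls on the first principal component, at 22.2 against 50 to 60.7, the overexpression libraries lying between -50.4 and -43.4. Hepatocyte markers were partly present: Alb, Ttr, Apob and Hnf4a averaged 267, 279, 244 and 310 CPM in overexpression libraries and 22.3, 1321, 145 and 348 CPM in controls, but Apoa2, Cyp2e1 and Cps1 were below 1 CPM in both groups. The 14 hepatocyte markers summed to 1140 to 1190 CPM in overexpression libraries and 1770 to 2220 CPM in controls. Of 10 tested 3 were called higher, Alb and Apob among them, and 3 lower. The lower sum came mostly from Ttr. The 6 cholangiocyte markers summed to 4480 to 5080 CPM in overexpression libraries and 2790 to 4140 CPM in controls. The higher sum came from Spp1, at 2731 CPM in overexpression libraries and 943 CPM in controls. Sox9 was called lower (57.9 CPM in overexpression libraries and 91.3 CPM in controls), as was Krt19 (1702 CPM in overexpression libraries and 2253 CPM in controls), whose groups overlapped and whose call was lost in 11 of 18 alternatives, and Krt7 was not called. Markers of stellate cells and fibroblasts summed to 9.86 to 17.5 CPM in overexpression libraries and 3.56 to 5.47 CPM in controls. Des alone averaged 11.3 CPM in overexpression libraries and 3.95 CPM in controls, and Lrat, Col3a1 and Lum were at 0 counts. Endothelial markers summed to 1.29 to 2.18 CPM in overexpression libraries and 0.125 to 0.697 CPM in controls, with Cdh5 alone averaging 1.29 and 0.117 CPM. Macrophage and leukocyte markers summed to 12.7 to 16.3 CPM in overexpression libraries and 29.8 to 36.4 CPM in controls. The lower sum came mostly from Csf1r, at 10.2 CPM in overexpression libraries and 27.1 CPM in controls. Cd68 and Lyz2 were not called, and Adgre1, Clec4f and Cd3e were at 0 counts. The part of these shifts in the results on the pathway was not tested.

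Promoter windows are shown because 6 of the 8 members with a window held letters that match an antioxidant response element. Of these 6 members 2 rose and 4 were not called, beside 32.3% of all tested genes called higher and 32.1% lower. The windows run from 250 bases before to 50 bases after the annotated start and were taken from RefSeq on GRCm38.p6, the build that mm10 names. Gclc and Hmox1 were not in the table of windows. Both strands were searched for TGACNNNGC, the core of the element, and for TGANTCAGC, a form that also holds an AP-1-like stretch. A match to both motifs at once is possible where N is C, and capitals mark every match.
Nfe2l2, chr2:75704614-75704913, minus strand: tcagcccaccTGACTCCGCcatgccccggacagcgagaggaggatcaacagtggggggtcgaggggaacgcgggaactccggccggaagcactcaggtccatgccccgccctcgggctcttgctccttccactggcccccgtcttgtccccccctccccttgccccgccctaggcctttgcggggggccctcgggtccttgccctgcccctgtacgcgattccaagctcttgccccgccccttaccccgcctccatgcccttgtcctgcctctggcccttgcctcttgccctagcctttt
Gclm, chr3:122245307-122245606, plus strand: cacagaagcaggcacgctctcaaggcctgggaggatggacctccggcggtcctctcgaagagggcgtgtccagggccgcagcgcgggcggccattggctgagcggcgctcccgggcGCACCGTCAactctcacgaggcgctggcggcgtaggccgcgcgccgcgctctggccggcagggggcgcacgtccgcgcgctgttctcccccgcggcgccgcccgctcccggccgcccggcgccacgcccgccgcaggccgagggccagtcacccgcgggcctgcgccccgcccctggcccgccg
Srxn1, chr2:152105274-152105573, plus strand: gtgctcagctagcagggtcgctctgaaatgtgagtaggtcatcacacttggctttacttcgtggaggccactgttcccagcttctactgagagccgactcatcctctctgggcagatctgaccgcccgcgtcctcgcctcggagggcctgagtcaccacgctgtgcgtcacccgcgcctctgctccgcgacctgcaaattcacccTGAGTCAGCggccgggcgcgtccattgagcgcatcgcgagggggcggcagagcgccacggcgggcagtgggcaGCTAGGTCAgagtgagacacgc
Osgin1, chr8:119436897-119437196, plus strand: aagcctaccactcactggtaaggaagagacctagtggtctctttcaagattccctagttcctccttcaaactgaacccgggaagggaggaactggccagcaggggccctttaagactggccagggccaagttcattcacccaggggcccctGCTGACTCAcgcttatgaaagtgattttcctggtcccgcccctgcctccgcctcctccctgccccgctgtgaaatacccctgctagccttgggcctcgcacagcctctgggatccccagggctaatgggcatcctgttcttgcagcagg
G6pdx, chrX:74428831-74429130, minus strand: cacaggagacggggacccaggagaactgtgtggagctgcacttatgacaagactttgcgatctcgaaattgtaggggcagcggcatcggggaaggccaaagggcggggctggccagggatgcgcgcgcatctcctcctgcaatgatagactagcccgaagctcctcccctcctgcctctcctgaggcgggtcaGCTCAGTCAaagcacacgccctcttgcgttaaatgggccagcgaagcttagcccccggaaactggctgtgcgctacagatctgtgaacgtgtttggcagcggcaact
Nqo1, chr8:107403156-107403455, minus strand: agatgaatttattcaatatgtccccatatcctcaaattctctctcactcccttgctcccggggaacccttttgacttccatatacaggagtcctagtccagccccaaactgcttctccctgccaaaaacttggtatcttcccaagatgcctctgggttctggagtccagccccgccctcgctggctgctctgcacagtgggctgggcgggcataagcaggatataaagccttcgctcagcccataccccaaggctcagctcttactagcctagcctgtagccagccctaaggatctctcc
The core matches began at position -240 in Nfe2l2, -134 in Gclm, -57 in G6pdx and 28 in Srxn1, counted along the gene with the start site as 0. The AP-1-like form began at -45 in Srxn1 and -99 in Osgin1. Txnrd1 had 3 windows, of which 1 held a core match at -92, and the windows of Nqo1 and Keap1 held neither motif. Of all 32851 windows of this length, 12.4% held the core, 1.19% the AP-1-like form and 13% either of them, and 14.7% of the 27025 genes with a window had either motif in at least 1. A match describes letters only and no binding was measured.

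Overexpression libraries held more transcript of the factor NRF2 and of both subunits of the enzyme that starts glutathione synthesis, and less of KEAP1, heme oxygenase and the quinone reductase NQO1. The other 4 members, Txnrd1, Srxn1, G6pdx and Osgin1, were not called. Thus 3 of 10 members were called higher and 3 lower, at log2 fold changes (overexpression over control) from -0.95 to 1.39 with a median of -0.038 (0.085 with library totals alone, 0.18 once the dependence on gene length was removed and 0.14 for that on GC content), against a median of 0.00041 over all tested genes. Across the table, 64.4% of tested genes were called, 32.3% higher and 32.1% lower, so the share of members called was near the background. The same 6 members were those whose groups did not overlap, and 56% of all tested genes had groups that did not overlap (28.5% higher and 27.5% lower). In 5 of these 6 the control value nearest to the overexpression mean was that of control library 3, the exception being Nqo1.

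**Figure D1:**
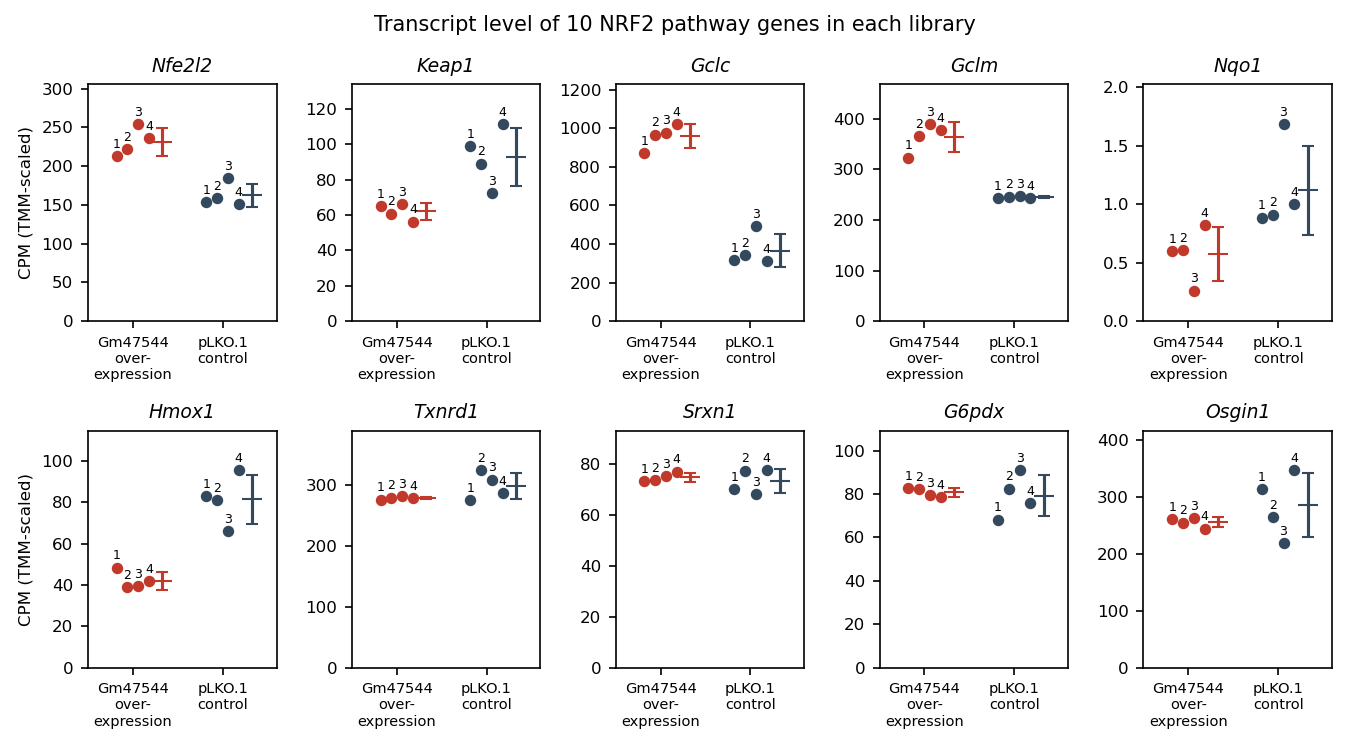
Level of each of the 10 genes in every library, in CPM on trimmed-mean scaled library sizes, with the replicate number above each point and the mean and SD (n = 4) beside each group. Nfe2l2, Gclc and Gclm sit higher in all 4 overexpression libraries, Keap1, Hmox1 and Nqo1 lower, and the groups of the other 4 genes overlap.

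Nfe2l2 (chr2:75675513-75704641, minus strand, GRCm38, 5 exons) codes for NRF2 itself, where exon numbers, here and below, are those of the longest annotated transcript. It stood at 213, 222, 255 and 237 CPM in overexpression libraries 1 to 4, against 154, 159, 185 and 151 CPM in control libraries 1 to 4. All overexpression values lay above all control values, and control library 3 was the highest control. The gene rose by a log2 fold change of 0.51 (SE 0.11; edgeR, adjusted p = 0.00131), or 1.43-fold. Removing the smooth dependence of each library's deviations on GC content (the GC trend; the length trend is the same for exon length) put it at 0.32, still called. In bulk RNA, a change in the number of cells that make a transcript and a change in RNA per cell cannot be told apart.

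Keap1 (chr9:21229730-21239361, minus strand, 5 exons) codes for the adaptor that holds NRF2 back. Its values were 64.9, 60.8, 66.3 and 56.2 CPM in overexpression libraries, against 98.8, 89, 72.5 and 112 CPM in controls. The groups did not overlap, although control library 3 came within 6.22 CPM of the highest overexpression library. Keap1 fell by 0.58 on the log2 scale (SE 0.14; edgeR, adjusted p = 0.00223), and by 0.27 with the GC trend removed, where it was still called. An antisense gene, Gm16754, shares 510 exon bases with Keap1, and the strand setting of the counting was not stated, so reads of both cannot be told apart.

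The ratio of Nfe2l2 to Keap1 counts within a library does not depend on the scaling. It was 3.29, 3.66, 3.84 and 4.21 in overexpression libraries 1 to 4, against 1.55, 1.79, 2.55 and 1.36 in control libraries 1 to 4. Every overexpression ratio exceeded every control ratio. The means were 3.75 ± 0.385 and 1.81 ± 0.523 (SD, n = 4 each), and on average the ratio was 2.12-fold higher in overexpression libraries (two-sided exact permutation test, p = 0.0286, the smallest that 4 against 4 allow, and also 0.0286 after adjustment over the 2 ratios tested). With the smooth dependence on GC content removed from each library, the log2 difference between the groups was 0.59 in place of 1.08, at ratios of 2.85 to 3.43 in overexpression libraries and 2.03 to 2.14 in controls, and the groups were still separate.

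**Figure D2:**
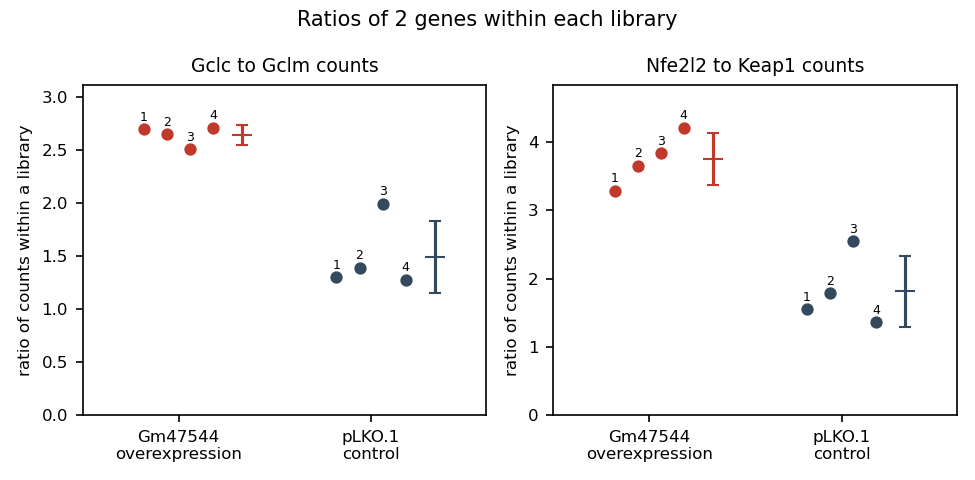
Ratio of Gclc to Gclm counts (left) and of Nfe2l2 to Keap1 counts (right) within each library, with replicate numbers above the points and mean and SD (n = 4) beside each group. In both panels the 4 overexpression libraries lie above the 4 controls, and control library 3 is the highest control.

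Genes that act on NRF2 changed in both directions. Of 20 such genes, 17 were tested, 7 rose and 8 fell, beside 32.3% of all tested genes called higher and 32.1% lower. The median log2 fold change was 0.035 (-0.063 without control library 3). It was -0.25, with 3 higher and 9 lower, when the length trend was removed. Cul3, the scaffold of the ligase that degrades NRF2, averaged 215 ± 5.78 CPM in overexpression libraries and 150 ± 31 CPM in controls (SD, n = 4 each), a log2 fold change of 0.52 (edgeR, adjusted p = 0.00479). That call was lost with the GC trend removed (log2 fold change 0.12, edgeR, adjusted p = 0.14; range over 18 alternatives 1.1e-07 to 0.14). Bach1, a repressor that competes with NRF2 for its elements and is known for holding down Hmox1, averaged 50.4 ± 2.91 CPM in overexpression libraries and 21.97 ± 6.28 CPM in controls, a log2 fold change of 1.19 (edgeR, adjusted p = 7.02e-05). The small MAF partners were lower: Maff averaged 52.1 ± 4.61 CPM in overexpression libraries and 129.8 ± 32.8 CPM in controls (log2 fold change -1.32), and Mafk averaged 34.7 ± 1.38 CPM in overexpression libraries and 74.5 ± 13.9 CPM in controls (log2 fold change -1.10). Mafg, the third partner, had a log2 fold change of -0.30 (edgeR, adjusted p = 0.0386), a call lost in 10 of 18 alternatives, among them leaving out any single library except control library 3 (edgeR, adjusted p 0.0667 to 0.104), and over all 18 the adjusted p ran from 0.000107 to 0.876. Sqstm1, whose protein p62 draws KEAP1 into autophagy, averaged 575 ± 16 CPM in overexpression libraries and 1080 ± 218 CPM in controls (log2 fold change -0.91, edgeR, adjusted p = 0.000129). Chd6, a chromatin remodeller, rose by 1.39 on the log2 scale, and by 0.61 with the length trend removed.

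Gclc and Gclm code for the catalytic and the modifier subunit of glutamate-cysteine ligase, the rate-limiting enzyme of glutathione synthesis. Gclc (chr9:77754535-77794485, plus strand, 16 exons) stood at 871, 968, 978 and 1023 CPM in overexpression libraries, against 317, 342, 492 and 311 CPM in controls. The lowest overexpression library lay well above control library 3, the highest control. With a log2 fold change of 1.39 (SE 0.15; edgeR, adjusted p = 8.28e-06), or 2.63-fold, Gclc had the largest change of the 10 members, and it kept its call in 18 of 18 alternatives, at log2 fold changes from 1.27 to 1.56.

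Gclm (chr3:122245557-122270732, plus strand, 7 exons) was at 323, 366, 390 and 377 CPM in overexpression libraries, against 244, 246, 247 and 243 CPM in controls. The controls agreed closely, control library 3 included, and lay below all overexpression values. Gclm rose by 0.57 on the log2 scale (SE 0.10; edgeR, adjusted p = 0.000321). The log2 fold change was 0.37 with the length trend removed, and 0.14 with the GC trend removed, where the call was lost (edgeR, adjusted p = 0.302; range over 18 alternatives 7.43e-08 to 0.302). Gclm shares 296 exon bases with Gm17494 on the opposite strand and 244 with the pseudogene Gm6061.

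The subunits did not move in step. The ratio of Gclc to Gclm counts was 2.7, 2.65, 2.51 and 2.71 in overexpression libraries, against 1.3, 1.39, 1.995 and 1.28 in control libraries 1 to 4. Both groups were separate, and the mean ratio was 2.64 ± 0.0915 in overexpression libraries and 1.49 ± 0.34 in controls (SD, n = 4 each), 1.8-fold higher on average (two-sided exact permutation test, p = 0.0286, the smallest possible here).

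Among 12 other genes of glutathione supply, 11 were tested, 1 rose and 4 fell, with a median log2 fold change of -0.30, beside 32.1% of all tested genes called lower. The number that fell depended on single libraries: leaving out control library 3 gave 8, leaving out overexpression library 1, 2 or 3 or control library 2 or 4 gave 2, and the number lay between 2 and 8 over all 18 alternatives. The median was -0.16 with library totals alone and -0.065 with the length trend removed. Slc7a11, the cystine carrier that feeds glutathione synthesis and a known NRF2 and ATF4 target, averaged 7.75 ± 0.618 CPM in overexpression libraries and 20.5 ± 4.97 CPM in controls (SD, n = 4 each; log2 fold change -1.40, edgeR, adjusted p = 2.53e-05). Gpx4, which reduces lipid peroxides with glutathione, fell by 1.09 on the log2 scale, and by 0.57 with the length trend removed. Gsr, which regenerates glutathione, had a log2 fold change of -0.34 (edgeR, adjusted p = 0.024), a call lost in 8 of 18 alternatives, including without overexpression library 1, 2 or 3 and without control library 2 or 4 (edgeR, adjusted p 0.0539 to 0.0631), over a range of 4.98e-05 to 0.578. Gss, the second enzyme of the synthesis, was at -0.30 and was not called (edgeR, adjusted p = 0.0857), but was called lower in 4 alternatives, without control library 3 among them (log2 fold change -0.43, edgeR, adjusted p = 0.000456; range over 18 alternatives 0.000456 to 0.285). Ggt1, which breaks down glutathione outside the cell, was the gene of this list that rose, at 9.89 ± 2.47 CPM in overexpression libraries and 3.24 ± 0.527 CPM in controls (log2 fold change 1.59).

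Nqo1 and Hmox1, both widely used as readouts of NRF2, were lower. Hmox1 (chr8:75093621-75100589, plus strand, 5 exons) codes for the inducible heme oxygenase that breaks heme down to biliverdin. It was at 48.4, 38.8, 39.3 and 41.7 CPM in overexpression libraries, against 83.1, 81.1, 66.2 and 95.5 CPM in controls. The groups were separate, with control library 3 the lowest control. Hmox1 fell by 0.95 on the log2 scale (SE 0.13; edgeR, adjusted p = 5.71e-05), and by 0.46 with the length trend removed, where it was still called.

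Nqo1 (chr8:107388225-107403206, minus strand, 6 exons), the reductase that detoxifies quinones, was barely expressed. It had 7, 11, 3 and 11 counts in overexpression libraries, against 10, 17, 27 and 13 counts in controls, which came to 0.6, 0.606, 0.262 and 0.819 CPM in overexpression libraries and 0.885, 0.912, 1.69 and 0.999 CPM in controls. The groups did not overlap but lay close, and control library 3 was far above the other controls. The 32 counts over the overexpression libraries against 67 over the controls gave a ratio of 0.515 at equal depth (95% exact binomial interval 0.327 to 0.796, counting error only). The log2 fold change was -0.95 (SE 0.37; edgeR, adjusted p = 0.0395). That call was lost in 10 of 18 alternatives: without overexpression library 1, 2 or 3 or control library 3 or 4 the log2 fold changes were -0.96, -0.97, -0.74, -0.70 and -1.004, and with the length trend removed it was -0.44 (edgeR, adjusted p = 0.371; range over 18 alternatives 0.00932 to 0.371).

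Among 8 other genes of heme and iron handling, 3 fell and 5 were not called, beside 32.1% of all tested genes called lower. The median log2 fold change was -0.15. Without control library 3, 5 fell and the median was -0.30, and with library totals alone 3 fell at a median of -0.020. Fth1 and Ftl1, the chains of ferritin, which stores iron, averaged 2345 ± 118 and 1564 ± 65.1 CPM in overexpression libraries, against 3931 ± 841 and 3914 ± 1080 CPM in controls (SD, n = 4 each; log2 fold changes -0.75 and -1.32, edgeR, adjusted p = 0.000782 and 3.94e-05). With the length trend removed Ftl1 was at -0.68. Blvra, which turns biliverdin into bilirubin, fell by 0.83 on the log2 scale, and by 0.51 with the length trend removed.

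Of 16 tested enzymes for quinones, carbonyls and aldehydes, 3 rose and 7 fell, a split that was 5 and 4 with the length trend removed. Over all tested genes 32.3% were called higher and 32.1% lower. Cbr1, a carbonyl reductase, averaged 8.89 ± 0.784 CPM in overexpression libraries and 26.4 ± 5.14 CPM in controls (SD, n = 4 each; log2 fold change -1.57, edgeR, adjusted p = 5.76e-06). Aldose reductase Akr1b3 fell by 2.06 on the log2 scale. Its relative Akr1b7 rose by 2.49, at 195 ± 31.7 CPM in overexpression libraries and 34.6 ± 3.01 CPM in controls (edgeR, adjusted p = 7.88e-08). Genes of this aldo-keto reductase family are similar in sequence, so their reads may be shared.

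Txnrd1 and Srxn1 code for enzymes that reduce oxidised thiols. Txnrd1 (chr10:82833951-82897712, plus strand, 15 exons) is the cytosolic reductase of thioredoxin. It was at 277, 280, 282 and 279 CPM in overexpression libraries, against 276, 325, 310 and 288 CPM in controls. The overexpression values lay within the range of the controls, and the log2 fold change was -0.10 (SE 0.098; edgeR, adjusted p = 0.386). It was called lower, at -0.37, with the length trend removed (edgeR, adjusted p = 0.00366; range over 18 alternatives 0.00366 to 0.851).

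Srxn1 (chr2:152105516-152111376, plus strand, 2 exons) codes for sulfiredoxin, which repairs over-oxidised peroxiredoxins. It was at 73.3, 73.5, 75.1 and 76.9 CPM in overexpression libraries, against 70.1, 77.3, 68.1 and 77.4 CPM in controls. The groups overlapped, with a log2 fold change of 0.028 (SE 0.10; edgeR, adjusted p = 0.817). With the length or the GC trend removed Srxn1 was called higher, at 0.28 and 0.26 (edgeR, adjusted p = 0.0157 and 0.00638; range over 18 alternatives 0.00638 to 0.997).

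Transcripts for thioredoxins and peroxiredoxins were lower almost throughout. The list of 12 genes also held Txnrd2, Txnrd3, Txnip and Sesn2. Of the 12, 11 were tested, 10 fell and 1 rose, beside 32.1% of all tested genes called lower and 32.3% higher. The median log2 fold change was -0.74 (-0.60 with library totals alone, and -0.38 with 7 lower and 1 higher with the length trend removed). Txn1, cytosolic thioredoxin, averaged 155 ± 4.95 CPM in overexpression libraries and 344 ± 34.4 CPM in controls (SD, n = 4 each; log2 fold change -1.15, edgeR, adjusted p = 3.16e-06), and its log2 fold change was -0.42 with the length trend removed. Txn2, its mitochondrial relative, fell by 0.88 on the log2 scale. Prdx6 and Prdx1, peroxiredoxins that break down peroxides, fell by 0.82 and 0.45. The Prdx1 call was lost with the length trend removed (log2 fold change -0.23, edgeR, adjusted p = 0.0731; range over 18 alternatives 8.53e-07 to 0.0731) and its value was -0.89 with the GC trend removed. Txnip, an inhibitor of thioredoxin named after its value was seen, was the 1 gene called higher (log2 fold change 0.88, edgeR, adjusted p = 0.0209). It was at 6.002, 10.7, 21.3 and 15.5 CPM in overexpression libraries, against 5.57, 7.94, 8.69 and 6.61 CPM in controls, so the groups overlapped. The call was lost without overexpression library 3 (log2 fold change 0.57) or 4, or control library 1 or 4 (edgeR, adjusted p 0.0523 to 0.0882; range over 18 alternatives 0.00194 to 0.0882).

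G6pdx (chrX:74409483-74429194, minus strand, 13 exons) codes for glucose-6-phosphate dehydrogenase, which makes NADPH at the entry to the pentose phosphate pathway. It was at 82.7, 82.2, 79.4 and 78.5 CPM in overexpression libraries, against 68.1, 82.4, 90.8 and 75.8 CPM in controls. All overexpression values lay inside the range of the controls, and the log2 fold change was 0.024 (SE 0.11; edgeR, adjusted p = 0.861). G6pdx shares 418 exon bases with Ikbkg on the opposite strand, and its intronless relative G6pd2, 93.2% identical over 2332 bases, had 11 counts over all 8 libraries.

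Other genes of NADPH supply and the pentose phosphate pathway were mostly lower beside it. Of 8 genes listed, 7 were tested, 5 fell and 1 rose, beside 32.1% of all tested genes called lower and 32.3% higher. The median log2 fold change was -0.42. Taldo1, transaldolase, averaged 252 ± 6.13 CPM in overexpression libraries and 520 ± 122 CPM in controls (SD, n = 4 each; log2 fold change -1.04, edgeR, adjusted p = 9.2e-05), and was at -0.64 with the length trend removed. Pgls and Pgd, which follow G6pdx directly, fell by 0.70 and 0.42 on the log2 scale. The GC trend put Pgls at -0.36 and the length trend put Pgd at -0.65, both still called. Me1, malic enzyme, was at -0.26 and was not called (edgeR, adjusted p = 0.139), but was called lower without overexpression library 1 (-0.42) and with the GC trend removed (-0.56), over a range of adjusted p from 0.00202 to 0.462. Idh1, cytosolic isocitrate dehydrogenase, rose by 0.57, and by 0.23 with the GC trend removed.

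Osgin1 (chr8:119434124-119446256, plus strand, 5 exons) codes for an oxidative stress-induced growth inhibitor. It was at 261, 255, 262 and 244 CPM in overexpression libraries, against 313, 264, 218 and 346 CPM in controls. The controls were spread on both sides of the overexpression values, with control library 3 the lowest. The log2 fold change was -0.16 (SE 0.14; edgeR, adjusted p = 0.319). Without control library 3 Osgin1 was called lower, at -0.29 (edgeR, adjusted p = 0.00485; range over 18 alternatives 0.00485 to 0.883), and with the GC trend removed it was called higher, at 0.15 (edgeR, adjusted p = 0.0345), so no direction can be given.

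**Figure D3:**
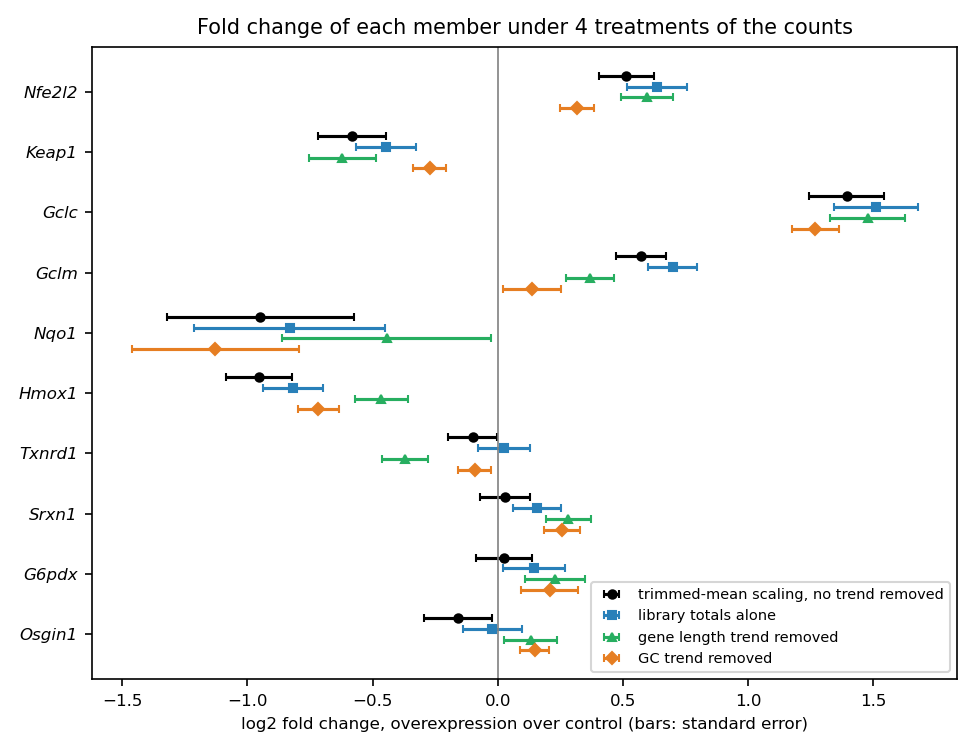
Log2 fold change (overexpression over control) of each member with its standard error, under trimmed-mean scaling, under library totals alone, and with the trend on gene length or GC content removed from each library. Nfe2l2, Gclc, Keap1 and Hmox1 keep their side of 0 in all 4, and Gclm comes close to 0 with the GC trend removed (0.14). Osgin1 changes sign, as does Txnrd1, from -0.10 to 0.024 with library totals alone.

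Compared per kilobase of exon, Gclc was the most abundant member in overexpression libraries, at 255 ± 17 CPM per kilobase, followed without overlap by Osgin1 at 95.5 ± 3.2 (SD, n = 4 each). In control libraries Osgin1 (107 ± 20.9 CPM per kilobase) and Gclc (97 ± 22.7) overlapped at the top. Nfe2l2 and Gclm came next in overexpression libraries at 61 ± 4.76 and 57.9 ± 4.62 CPM per kilobase, with overlapping ranges. In controls Hmox1, Nfe2l2 and Txnrd1 followed at 46.5 ± 6.86, 42.7 ± 4.08 and 42.3 ± 3.07 CPM per kilobase, each overlapping the next. Keap1 was ninth in both groups, at 13.2 ± 0.972 CPM per kilobase in overexpression libraries and 19.8 ± 3.51 in controls. Nqo1 was last in both, at 0.368 ± 0.148 CPM per kilobase in overexpression libraries and 0.722 ± 0.245 in controls.

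Of the 5 pumps of the Abcc family tested, which export glutathione conjugates and other organic anions, Abcc1 and Abcc3 rose and Abcc2, Abcc4 and Abcc5 were not called. Only Abcc1 was called higher without overexpression library 2, 3 or 4 or control library 1 or 2, while without control library 3 Abcc2 and Abcc4 were called higher too, and with the length trend removed Abcc1 was called higher and Abcc2 and Abcc5 lower. Abcc1 averaged 160 ± 4.6 CPM in overexpression libraries and 75.9 ± 6.88 CPM in controls (SD, n = 4 each; log2 fold change 1.08, edgeR, adjusted p = 4.12e-06), and was at 0.38 with the length trend removed. Abcc3, a bile acid and conjugate exporter, had a log2 fold change of 0.32. Abcb6, a porphyrin transporter in the same list, was called lower at -0.42. Abcb6 shares 2932 exon bases, 55.2% of its exon length, with Gm29253 on the same strand, so reads of both cannot be told apart there. The Abcc3 call was lost in 8 of 18 alternatives (without overexpression library 2, 3 or 4 or control library 1 or 2 among them) and the Abcb6 call in 5 (without overexpression library 3 or 4 or control library 4 among them), with adjusted p up to 0.261 and 0.139 and down to 5.35e-05 and 0.0003. Of the enzymes that remove superoxide and hydrogen peroxide, Sod1 and Sod2 fell by 1.01 and 0.63 on the log2 scale. Sod2 was at -1.12 with the length trend and -1.09 with the GC trend removed. Sod3, the extracellular form, rose by 0.51, a call lost without overexpression library 3 (0.45, edgeR, adjusted p = 0.0609) or control library 2 (0.44, edgeR, adjusted p = 0.0675; range over 18 alternatives 0.000266 to 0.0675). Catalase, Cat, was at -0.16 and was not called (edgeR, adjusted p = 0.164), although its groups did not overlap. Cat was called lower with the GC trend removed (-0.22, edgeR, adjusted p = 0.00708). With the length trend removed it was at 0.13 and was not called. Over 18 alternatives its adjusted p ran from 0.00708 to 0.79.

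Across the 8 lists, 87 genes beside the 10 members, 80 were tested, 16 rose and 40 fell, with a median log2 fold change of -0.30. The median over all tested genes was 0.00041, and 64.4% of them were called, 32.3% higher and 32.1% lower. Scaling by library totals alone raised that overall median by 0.128, and the lists then held 17 genes that rose and 32 that fell, at a median of -0.16. With the length trend removed 14 rose and 39 fell. These lists were chosen with earlier results of these data known, and no test of a list as a whole was made.

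**Figure D4:**
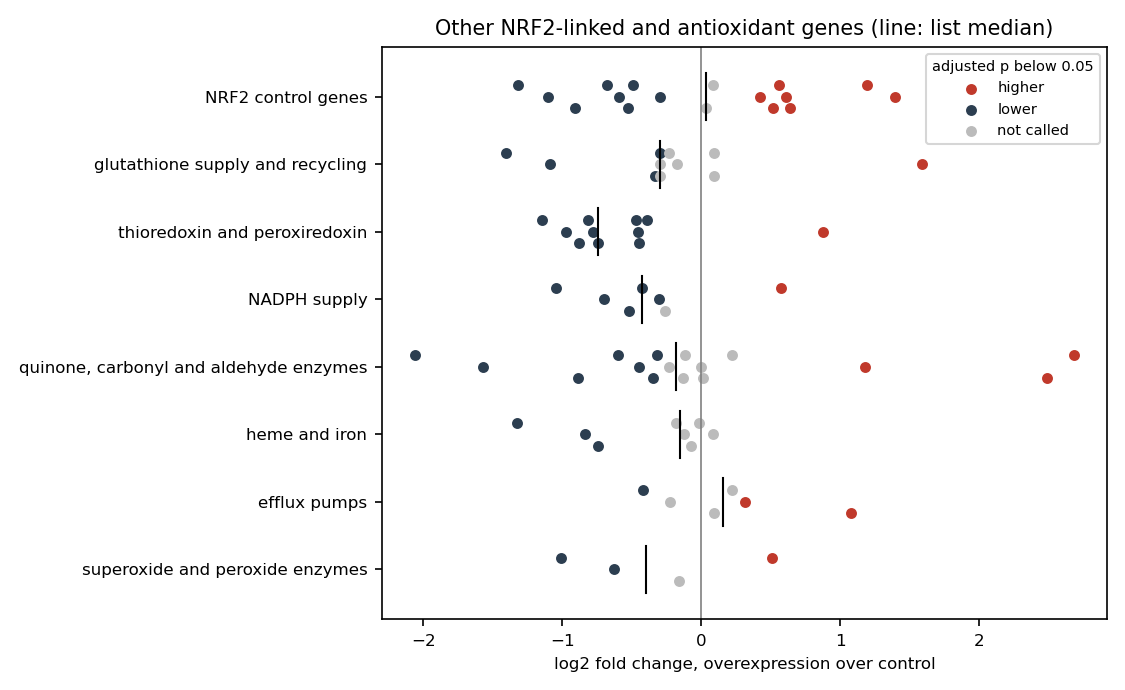
Log2 fold change (overexpression over control) of the 80 tested genes outside the 10 members, by list, each point 1 gene and the black line the median of the list, coloured by whether the gene was called higher, lower or not at an adjusted p below 0.05. The list of thioredoxins and peroxiredoxins has 10 of 11 genes below 0, while the list of genes that act on NRF2 is spread on both sides.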

How the data were processed

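RNA-seq of AML-12 cells was analysed from 1 table of raw counts per gene symbol, which the authors deposited with no normalization: 4 overexpression and 4 control libraries, grouped by their titles. FastQC, STAR, HTSeq and mm10 are named per the submitters' processing notes, with versions, annotation and strand setting not given in the sources used here. The 10 members, the other gene lists and the alternatives were chosen with earlier results of these data known. The tests used edgeR 4.0.16 in R 4.3.3: filterByExpr at a minimum count of 10, trimmed-mean scaling, and a two-sided quasi-likelihood test of group alone, adjusted over 11520 genes by Benjamini-Hochberg. Standard errors were derived from the fold change and F. Exon lengths, positions and overlaps came from GENCODE M21 on GRCm38 (21926 of 21983 symbols matched), and similar transcripts from blastn 2.17.0 at 90% identity over 200 bases or more. Among other named genes, Pgls shares 20.6% of its exon length with Fam129c on the same strand. Akr1b7, Ftl1, Txnip and Sqstm1 share 27.2%, 26.5%, 19.4% and 17.3% with Gm13857, Gm10252, Gm15441 and Mrnip on the opposite strand. Named beside the members were 15 fixed genes and up to 3 called genes with the smallest p of each list. The 18 alternatives were other scalings and filters, DESeq2 1.42.0, limma-voom (limma 3.58.1), a replicate block, removal of lowess trends (span 0.3) on exon length or GC content of the longest transcript, and leaving out each library. Library pairs of a group differed by a chi-square per gene of 2.41 to 102, so none was a duplicate. The test was checked on simulated counts that held few changed genes, no deviating library and no length or GC trend. That check therefore does not cover how those features of these data affect the calls. Intervals cover counting error only. Figures were drawn with matplotlib 3.10.9.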

Additional observations from a re-analysis of the deposited data

Results flagged for a closer look

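In 6 of 92 groups of 4 libraries examined, covering the named genes and both ratios, 1 library lay so far from the other 3 that its gap passed Dixon's 95% limit for 4 values, where chance gives about 1 in 20. Control library 3 was that library in 4 of the 6. It held 1.69 CPM of Nqo1 where the other controls held 0.885 to 0.999 CPM, and 85.5 CPM of Chd6 where the others held 49.7 to 53.6 CPM. It also held 86.2 CPM of Abcc1, the others 71.7 to 73.6 CPM, and its ratio of Gclc to Gclm counts was 1.995, the others 1.28 to 1.39. Among overexpression libraries, library 3 had 135.7 CPM of Mafg, the others 145 to 146 CPM, and library 1 had 215 CPM of Prdx6, the others 227 to 229 CPM.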

How the results depend on the processing

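Of the 10 members, Nfe2l2, Keap1, Gclc and Hmox1 kept their direction and call in all 18 alternatives, with log2 fold changes of 0.32 to 0.64, -0.71 to -0.27, 1.27 to 1.56 and -1.07 to -0.46. Gclm lost its call with the GC trend removed and Nqo1 in 10 alternatives, as given above. Values that changed sign were small: Txnrd1 was at 0.024 with library totals alone, Srxn1 at -0.035 without control library 3 (up to 0.051 over the left-out libraries), and G6pdx at -0.0024 with no filter and at -0.049 and -0.0022 without control library 1 or 4 (up to 0.065). Osgin1 was at 0.13 with the length trend and 0.15 with the GC trend removed, and Cat at 0.13 with the length trend removed. The cause was not tested. Over all tested genes the number called was 7417, and lay between 6659 and 9001 in the alternatives, 9001 being the count without control library 3. The log2 difference in the ratio of Nfe2l2 to Keap1 (1.08 with all libraries) was 0.59 with the GC trend and 1.202 with the length trend removed, and that of Gclc to Gclm (0.85) was 1.12 and 1.14. They ran from 0.96 to 1.26 and from 0.78 to 1.00 when 1 library was left out, where an exact permutation test of 3 against 4 cannot go below p = 0.0571. Same-numbered libraries of both groups did not deviate together (correlations across genes of 0.0227, -0.011, -0.0773 and -0.119), so the numbers are not taken as pairs. With the replicate block 7129 genes were called, Nqo1, Mafg, Gsr and Abcc3 lost their calls, and both ratios kept their differences (0.85 and 1.08) at an exact p of 0.125, the smallest that 4 pairs allow. Among the 10 members the depth limits Nqo1 most, with 3 to 27 counts a library.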

Other observations

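Txnrd2, the mitochondrial thioredoxin reductase, and Cbr3, a carbonyl reductase often induced by NRF2, were listed at 0 counts in all 8 libraries, which allows up to 0.0548 CPM over the overexpression libraries and 0.0509 CPM over the controls (3 counts over a group). Both were named after their values were seen. Among genes of the lists that the naming rule did not reach, and picked after their values were seen, Aldh3a1, an aldehyde dehydrogenase, averaged 1.88 ± 0.853 CPM in overexpression libraries and 0.288 ± 0.153 CPM in controls (SD, n = 4 each; log2 fold change 2.68, edgeR, adjusted p = 0.000257). Akr1b10 averaged 11.2 ± 1.83 CPM in overexpression libraries and 4.87 ± 1.07 CPM in controls (log2 fold change 1.18, edgeR, adjusted p = 0.000142). Both kept their calls in all 18 alternatives, although Aldh3a1 rested on few counts, 105 over the overexpression libraries and 17 over the controls.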
